A study of Tupaia belangeri with 15 samples.

Results

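Potassium channel genes were taken as every annotated gene whose name follows the KCN pattern of a letter code and a number, antisense features and numbered copies being left out, which gave 91 genes of 83605 annotated features in the tree shrew (TS, Tupaia belangeri) retina. The name pattern uses no measured value, but the set was chosen with earlier results of these data known. Nuclei from 15 frozen retinas had been profiled on the 10x Genomics platform, 5 retinas each labelled Infancy, Mature and Senile, and the labels give no genotype, strain, treatment or other agent. Each retina is described in the study as coming from a separate animal, the labels name only stage and replicate, and senile animals were bought from another institute than the one that supplied the infant and mature animals. A difference between the senile and another stage therefore cannot be told apart from a difference between sources. The study asked how the cell types of this cone-rich retina and their transcripts differ over the lifespan, and the measurements below ask which channel genes mark which cell class and which of them changed between stages.

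Potassium channels set the resting potential of retinal cells and end their depolarizations. Voltage-gated (Kv) subunits of the KCNA, KCNB, KCNC, KCND, KCNQ and KCNH families open on depolarization, electrically silent KCNF, KCNG, KCNS and KCNV subunits change the gating of KCNB channels, inward rectifiers (KCNJ) and tandem-pore subunits (KCNK) carry current near rest, and KCNM, KCNN and KCNT channels respond to calcium or sodium inside the cell. In the retina, KCNV2 with KCNB subunits is known for the photoreceptor current whose loss causes cone dystrophy with supernormal rod responses, and KCNJ10 for the potassium conductance of Müller cells.

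The libraries held 13429873 to 58734300 unique molecular identifiers (UMIs, counts of distinct RNA molecules) in 4269 to 9856 barcodes, of which 119765 passed the filters in all and 111825 remained after 7940 doublets were removed. Clusters were named from marker lists in which no potassium channel took part, so each name stands for nuclei like that class; 99984 nuclei (89.4%) received 1 of 9 names, namely 14753 cones, 1041 rods, 30771 bipolar cells (BCs), 1484 horizontal cells (HCs), 37216 amacrine cells (ACs), 5342 retinal ganglion cells (RGCs), 7200 Müller cells, 1311 astrocytes and 866 microglia. Nuclei left without a name were uneven over the stages, with 2407 in infant, 4604 in mature and 4830 in senile retinas, and 166 to 2235 per retina. A retina entered a class with at least 10 nuclei, and Senile 1, which had 0 nuclei named as rods, is missing from every rod value. A library shared at most 18 to 30 barcodes with another library. The headers of 7 libraries name an earlier and those of 8 a later Cell Ranger version, both present in every stage, and 91 of 259 gene and class combinations of the set differed between them against 23.3% of all combinations, so the version was a term of every stage fit. Infancy 1 to 3, Mature 1 and 2 and Senile 1 and 2 carried the earlier version. Lists of 5 values for a stage follow the replicate numbers 1 to 5. Levels are UMI counts scaled to a total of 1000000 for a class in a retina (CPM), which are not compared between genes, and ± stands for the SD over retinas for a level and the SE for a log2 fold change.

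Of the 91 genes, 79 had at least 1 UMI among the named nuclei. The 12 others were KCNA1, KCNA7, KCNA10, KCND1, KCNJ1, KCNJ5, KCNJ6, KCNK7, KCNN3, KCNAB1, KCNE3 and KCNE5, and their count of 0 allows up to 3 UMIs, or 0.00888 CPM over all named nuclei, which covers counting error only. RNA counted under a numbered copy of such a gene, which was left out, is not part of that count. By family, 26 of 30 voltage-gated, 10 of 10 silent, 11 of 14 inward rectifier, 12 of 13 tandem-pore, 7 of 8 calcium- or sodium-activated and 13 of 16 accessory genes had a UMI. After the filter on low counts 50 genes were tested between classes. A gene was called higher in a class with an adjusted p under 0.05 (edgeR quasi-likelihood test within retinas, class against the mean of the 8 others) and a log2 fold change above 1. By this rule 124 of 450 gene and class combinations were called, against 14.4% of all combinations tested. Each of the 50 genes was called in at least 1 class, 3 of them in a single class and 24 in 3 or more; since a gene high in 1 class passes the filter more easily, this is a description of the genes that passed.

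The calls were unevenly spread over the classes. Among the 50 tested genes 28 were called higher in ACs (background 16.3%), 27 in RGCs (background 18.1%) and 23 in BCs (background 13.8%). Cones had 4 genes called higher (background 16.9%) and 42 lower by more than 1 on the log2 scale (background 25.4%), and Müller cells 5 higher (background 16.7%) and 28 lower (background 13.8%). HCs and microglia had 12 called higher each (backgrounds 11.5% and 11.3%), astrocytes 9 (background 14.5%) and rods 4 (background 10.6%). The median log2 fold change of the tested genes was -2.27 in cones and 1.34 in RGCs. Inner retinal neurons held most of the higher calls and cones few. Genes outside the naming rule are named below to complete their family and were chosen after their values were seen.

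**Figure D1:**
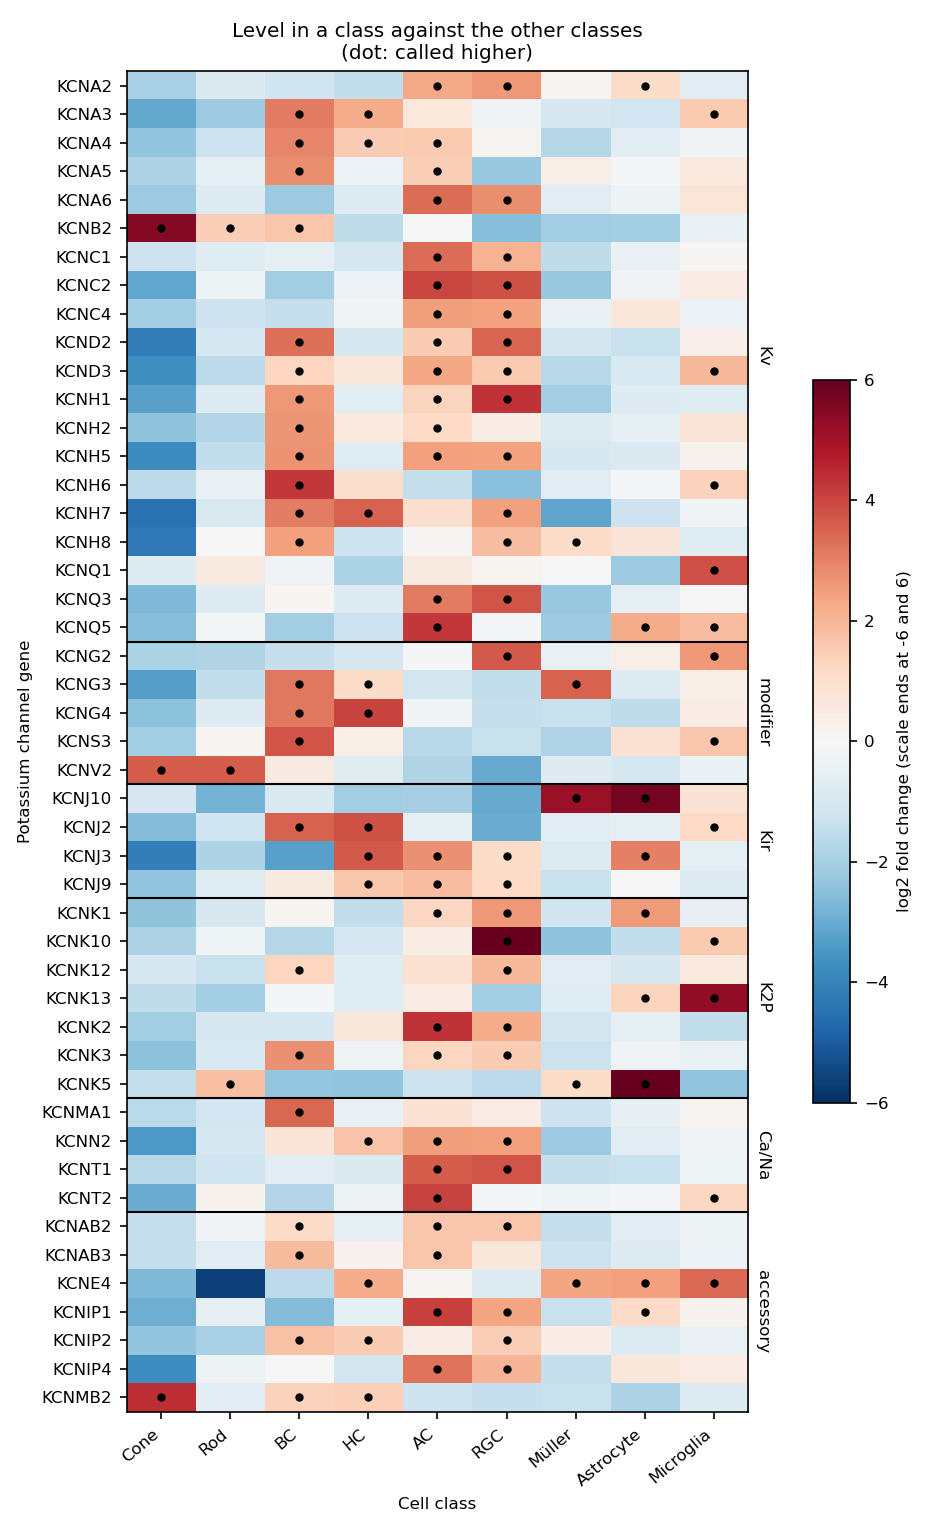
Log2 fold change of 47 of the 50 tested potassium channel genes (rows, grouped by family) in each of the 9 cell classes (columns) against the mean of the other classes. Black dots mark genes called higher; the cone column shows 3 dots and the AC column 26.

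Among the delayed rectifiers, KCNB2, which encodes Kv2.2, was highest in cones. The lowest, median and highest cone libraries had 9656, 12399 and 15951 CPM, and the highest library of any other class, a rod library, had 2688 CPM, so the cones did not overlap with any class. The log2 fold change was 5.52 ± 0.12 (SE, adjusted p = 1.97e-75). Rods (mean 1444 ± 663 CPM, n = 14) and BCs (mean 1252 ± 171 CPM, n = 15) were also called, by 1.46 and 1.69 on the log2 scale, and the rod call fell under the log2 threshold, to 0.63, when nuclei were named one by one. KCNB2 was also set beside the summed cone markers of the same library. The median ratio of KCNB2 to these markers was 1.32 in cones, 0.978 in HCs, 1.02 in RGCs, 0.598 in Müller cells, 0.792 in astrocytes and 1.29 in microglia. It was 3.005 in rods, 3.35 in ACs and 6.52 in BCs. Relative to cone markers, KCNB2 was thus higher by median in rods, ACs and BCs than in cones. The ratios ranged from 0.96 to 2.01 in cones, overlapping with rods (1.46 to 7.1) and ACs (1.00 to 6.34). In BCs they ranged from 2.58 to 9.89, above every cone library. The part of cone RNA in the KCNB2 of other classes was not tested.

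The fast KCNC (Kv3) channels, which allow short action potentials, included 3 genes called in both ACs and RGCs. KCNC1 was called in ACs (303 ± 40.4 CPM, n = 15, log2 fold change 3.37) and RGCs (135 ± 27.00 CPM, n = 15, 2.09). KCNC2 had 899.5, 1049 and 1379.6 CPM in AC libraries and 796, 892 and 1269 CPM in RGC libraries as lowest, median and highest, with log2 fold changes of 4.00 ± 0.13 (SE, adjusted p = 4.39e-59) and 3.81 ± 0.13 (SE, adjusted p = 3.3e-56). The ranges of ACs and RGCs overlapped, and both lay above all other classes. KCNC4 was called in ACs and RGCs at 16.2 and 13.99 CPM.

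Of the KCNA (Kv1) channels, KCNA2, a channel of axons, was called in RGCs (79.8 ± 42.3 CPM, n = 15, log2 fold change 2.59), ACs (64.6 ± 26.9 CPM, n = 15, 2.28) and astrocytes (33.4 CPM, 1.11). KCNA3 was called in BCs (108 ± 20.04 CPM, n = 15, 3.11), HCs (64.3 CPM, 2.24) and microglia (57.7 CPM, 1.56). KCNA1, their best-known relative in axons, had 0 UMIs under that name, numbered copies being left out. KCNA4 and KCNA5 were called in BCs and ACs, KCNA4 also in HCs, and KCNA6 in ACs and RGCs. No KCNA gene was called in cones, rods or Müller cells.

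KCNQ3, a subunit of the channels that carry the subthreshold M-current of neurons, was called in RGCs and ACs. It had 421 ± 85.2 CPM (SD, n = 15) in RGCs and 291 ± 40.6 CPM (SD, n = 15) in ACs, log2 fold changes of 3.76 and 3.13. KCNQ1 was called in microglia alone, with 183, 408 and 775 CPM as lowest, median and highest library and a log2 fold change of 3.85 ± 0.13 (SE, adjusted p = 1.11e-55). The lowest microglial library stood above the highest of any other class, at 105 CPM.

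KCNQ5 was highest in ACs, with 130.2, 150.1 and 239.9 CPM as lowest, median and highest and a log2 fold change of 4.23 ± 0.17 (SE, adjusted p = 3.7e-49). It was also called in astrocytes, at 2.23 ± 0.36 (SE, adjusted p = 4.71e-08), but there 1 library decided the value. The astrocytes of the Mature retinas had 4.64, 5.73, 16.7, 961 and 6.23 CPM, and those of the other stages ranged from 0 to 57.3 CPM. Without Mature 4 the log2 fold change was 0.25 (adjusted p = 0.65). In that library the astrocyte markers summed to 1402 CPM against 5473 to 8462 in the other Mature astrocytes, and those of the retinal pigment epithelium, endothelium and pericytes to 1261, 464 and 226 CPM, the last 3 sums each being the highest of the 15 retinas. The part of those cells in the value was not tested. Microglia were called for KCNQ5 too, at 49.1 CPM from 115 UMIs.

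The KCNH family holds the channels of the ether-a-go-go type. KCNH6 was highest in BCs, with 34.04, 54.8 and 97.9 CPM as lowest, median and highest and a log2 fold change of 4.25 ± 0.11 (SE, adjusted p = 5.32e-69). It was also called in microglia, at 11.55 CPM. KCNH1 was highest in RGCs, with 133, 189.9 and 230.3 CPM and 4.34 ± 0.10 (SE, adjusted p = 2.96e-72), above every library of the other classes, the highest of which, from BCs, had 101 CPM. KCNH7 was highest in HCs, with 2549, 3399.6 and 4534 CPM and 3.53 ± 0.15 (SE, adjusted p = 6.11e-46), overlapping with BCs at a mean of 2672 CPM. BCs and RGCs were called for KCNH7 too, RGC libraries having 1436, 1814 and 2402 CPM. KCNH8 was called in BCs (239 CPM), RGCs (164 CPM) and Müller cells (112 ± 66.5 CPM, n = 15, log2 fold change 1.12 ± 0.13, adjusted p = 1.78e-13). The Müller call of KCNH8 fell to 0.85 with nuclei named one by one and to 0.87 in the later header version alone. KCNH5 was called in BCs, ACs and RGCs at 825, 737 and 688 CPM, and KCNH2 (hERG) in BCs and ACs at 36.3 and 16.9 CPM.

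The A-type KCND (Kv4) channels and the calcium-binding KCNIP subunits that assemble with them had partly different places. KCND2 was called in RGCs (2248 ± 247 CPM, n = 15), BCs (1986 ± 261 CPM, n = 15) and ACs (691 ± 156 CPM, n = 15), by 3.50, 3.30 and 1.50 on the log2 scale. KCND3 was called in the same classes and in microglia, where the libraries had 208, 402 and 872 CPM and the log2 fold change was 2.01 ± 0.17 (SE, adjusted p = 2.71e-21). It fell just under the threshold in microglia, at 0.98, with nuclei named one by one.

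KCNIP1 and KCNIP4 were highest in ACs and also called in RGCs. Astrocytes were called for KCNIP1 too, their libraries having 68.6, 147 and 311 CPM as lowest, median and highest. KCNIP1 had 607, 822 and 1529 CPM in AC libraries as lowest, median and highest, a log2 fold change of 4.10 ± 0.14 (SE, adjusted p = 6.34e-55), above every library of other classes, which reached 502 CPM. KCNIP4 had 2812 ± 369 CPM (SD, n = 15) in ACs and 1322 ± 171 CPM (SD, n = 15) in RGCs, log2 fold changes of 3.25 and 2.06. KCNIP2 was instead called in BCs, HCs and RGCs, at 99.9, 84.3 and 82.4 CPM. KCNAB2 and KCNAB3, beta subunits of KCNA channels, were both called in BCs, at 49.5 and 85.8 CPM, and ACs, at 67.3 and 77.5 CPM, and KCNAB2 also in RGCs. KCNE4, a subunit that inhibits some KCNQ1 and KCNA channels, was called at low levels in microglia, HCs, astrocytes and Müller cells, at 12.5, 7.83, 6.87 and 5.45 CPM. KCNIP3, which also acts as a transcriptional repressor, did not pass the filter and had class means of 1.43 to 6.24 CPM.

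Silent subunits were found where their KCNB partners were, and elsewhere. KCNV2 (Kv8.2) was called in both photoreceptor classes and no other. Cone libraries had 63.3, 104 and 138 CPM and rod libraries 38.1, 86.7 and 266 CPM as lowest, median and highest, with log2 fold changes of 3.65 ± 0.10 (SE, adjusted p = 2.86e-66) and 3.63 ± 0.18 (SE, adjusted p = 1.53e-39). The photoreceptor ranges overlapped with each other. KCNG4 was highest in HCs (105 ± 31.6 CPM, n = 15, log2 fold change 4.04 ± 0.13, adjusted p = 6.94e-59) and also called in BCs at 61.4 CPM, with overlapping ranges.

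KCNG3 was called in Müller cells, where the libraries had 39.9, 96.2 and 145 CPM and the log2 fold change was 3.55 ± 0.10 (SE, adjusted p = 5.07e-63), as well as in BCs at 70.7 and HCs at 20.6 CPM. KCNG2 was called in RGCs (47.8 ± 8.19 CPM, n = 15, log2 fold change 3.67) and microglia (32.8 ± 19.05 CPM, n = 15, 2.58 ± 0.27, adjusted p = 2.04e-15), the microglial libraries ranging down to 0. KCNS3 was highest in BCs, with 9.54, 20.8 and 58.8 CPM as lowest, median and highest and 3.80 ± 0.13 (SE, adjusted p = 5.44e-55). Microglia were called for KCNS3 too, at 7.66 CPM from 17 UMIs. The 5 other silent subunits (KCNF1, KCNG1, KCNS1, KCNS2 and KCNV1) had UMIs but did not pass the filter.

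Among the inward rectifiers, KCNJ10 (Kir4.1), through which glia take up and release potassium, was called in Müller cells and astrocytes and nowhere else. Müller libraries had 30.1, 88.1 and 192 CPM and astrocyte libraries 5.65, 158 and 319 CPM as lowest, median and highest, with log2 fold changes of 5.20 ± 0.13 (SE, adjusted p = 1.04e-71) and 5.75 ± 0.17 (SE, adjusted p = 4.91e-63). Neuronal class means ran from 0.553 CPM in RGCs to 2.46 CPM in BCs. The lowest astrocyte library and the lowest Müller library both came from Mature 4. Of the 3 Müller clusters, 1 with 855 nuclei, 37.9% of them from Mature 4, had 8.42 CPM of KCNJ10 and 118 CPM of the Müller marker RLBP1, against 99.0 and 1089.5 CPM in the largest Müller cluster.

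KCNJ2 (Kir2.1) was called in HCs and BCs. HC libraries had 191, 318 and 579 CPM and BC libraries 186, 240.5 and 664 CPM as lowest, median and highest, with log2 fold changes of 3.83 ± 0.10 (SE, adjusted p = 3.21e-67) and 3.54 ± 0.08 (SE, adjusted p = 3.17e-73), and these ranges overlapped. Microglia were called as well, at 85.9 CPM. KCNA3, KCND3, KCNH6 and KCNS3 were likewise called in both BCs and microglia. The summed BC markers had medians of 1539, 2575 and 2077 CPM in infant, mature and senile microglia. In BCs themselves these were 12622, 11937 and 13632 CPM. The part of BC RNA in these microglial calls was not tested. KCNJ3 (GIRK1), which opens on signals from G protein-coupled receptors, was highest in HCs (1574 ± 346 CPM, n = 15, log2 fold change 3.68 ± 0.11, adjusted p = 5.49e-60) and astrocytes (1216 ± 384 CPM, n = 15, 3.04 ± 0.12, adjusted p = 3.87e-48), and was called in ACs at 929 and RGCs at 327 CPM. In BCs KCNJ3 had 22.7 CPM. Its relative KCNJ9 (GIRK3) was called in ACs, HCs and RGCs.

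The other 7 inward rectifiers with UMIs did not pass the filter. KCNJ14 (Kir2.4) had 0.762 CPM in cones, 0.475 in rods and 0.0944 in BCs, 53 of its UMIs being from cones. KCNJ16, which forms a channel with KCNJ10, had a mean of 24.5 CPM in astrocytes and 0 UMIs in Müller cells, and KCNJ12 had 11.7 CPM in Müller cells. Both were singled out after their values were seen and were not tested between classes. KCNJ13 was not analysed here. Other genes under the filter with class means singled out in the same way were KCNK6 at 21.2 CPM in microglia and KCNK9 at 12.5 CPM in RGCs.

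Of the tandem-pore channels, KCNK10 and KCNK13 each stood apart in 1 class. KCNK10 (TREK-2), a channel opened by stretch and lipids, had 101, 135 and 165 CPM in RGC libraries as lowest, median and highest. The highest library of any other class, from microglia, had 38.97 CPM. RGCs did not overlap with any class, and the log2 fold change was 6.67 ± 0.12 (SE, adjusted p = 3.76e-85). KCNK13 (THIK-1), known for the resting potential of microglia, had 99.6, 288 and 586 CPM in microglia, where every library stood above the highest of the other classes, an astrocyte library with 51.3 CPM. Its log2 fold change in microglia was 5.32 ± 0.13 (SE, adjusted p = 8.55e-71). KCNK10 was also called in microglia, at 5.71 CPM from 14 UMIs, and KCNK13 in astrocytes, at 18.5 CPM.

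KCNK5 (TASK-2), an alkali-sensitive channel, had 39.9 ± 24.7 CPM (SD, n = 15) in astrocytes, with 0, 39.6 and 97.4 CPM as lowest, median and highest, and a log2 fold change of 8.42 ± 0.26 (SE, adjusted p = 3.15e-44). The value rests on 138 UMIs in astrocytes, and since BCs, HCs and microglia had 0 UMIs the fitted fold depends on how zeros are handled. The calls of KCNK5 in rods and Müller cells came from 2 and 7 UMIs. KCNK2 (TREK-1) was called in ACs (16.9 ± 3.89 CPM, n = 15) and RGCs, KCNK3 (TASK-1) in BCs, RGCs and ACs, KCNK12 in RGCs and BCs, and KCNK1 in RGCs, astrocytes and ACs.

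**Figure D2:**
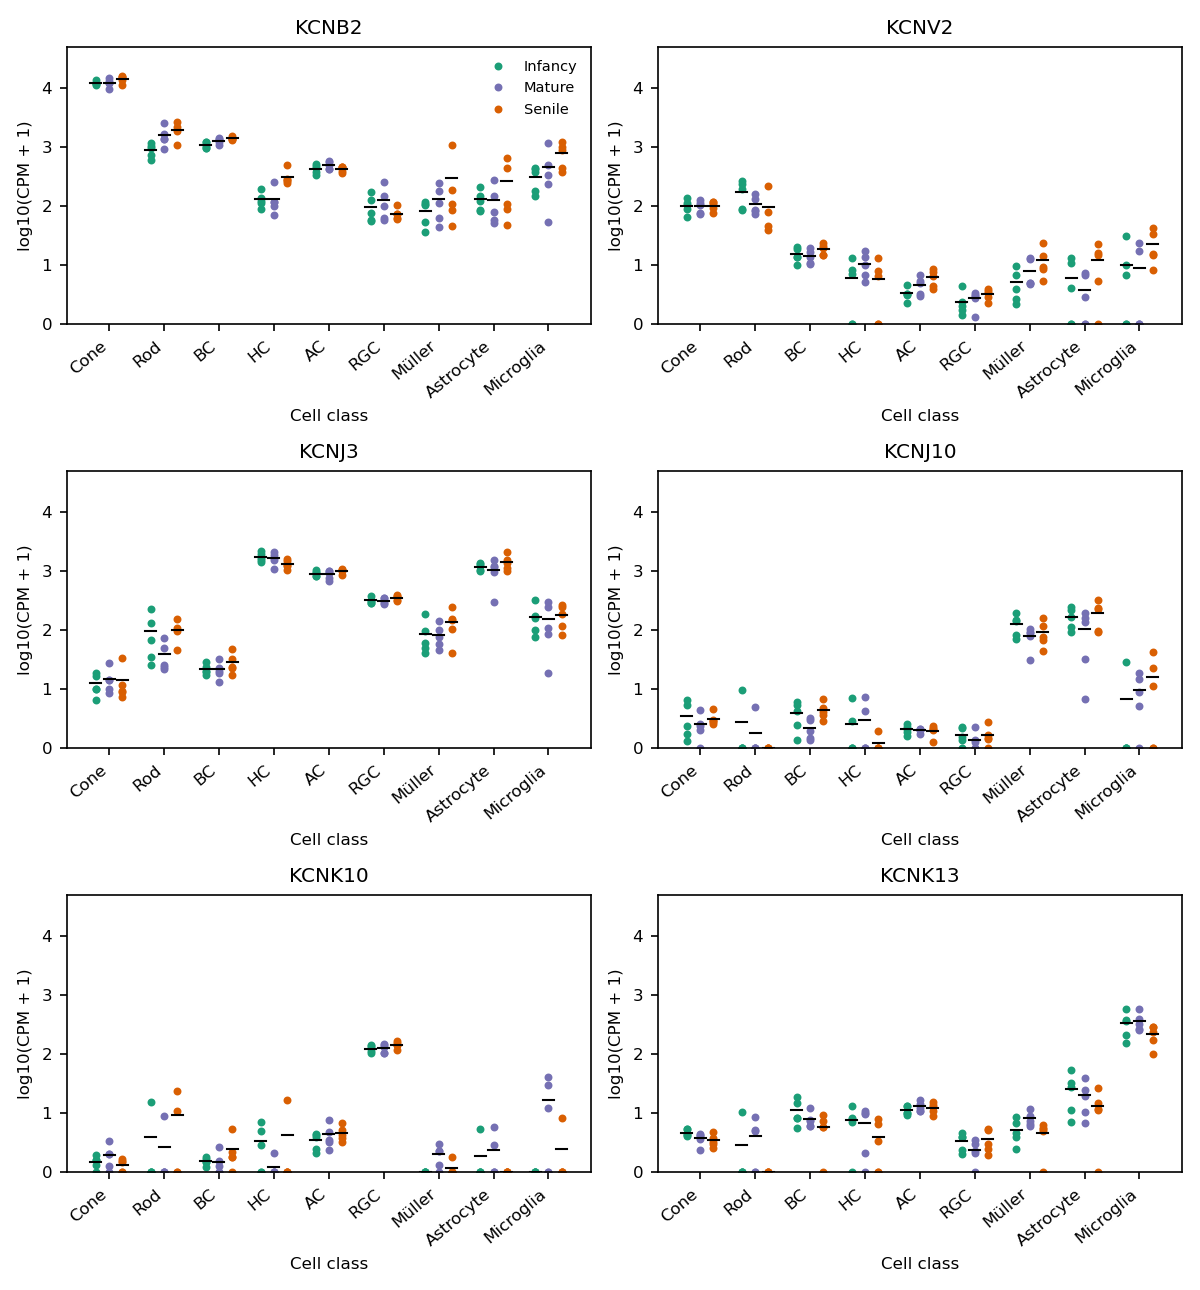
Level of 6 potassium channel genes in each cell class on a log10(CPM + 1) scale, 1 point per retina coloured by stage, with bars at the mean CPM of a stage. KCNB2 lies highest in cones at a mean of 13046 CPM, KCNK10 in RGCs at 129.8, KCNK13 in microglia at 306, and KCNJ10 in Müller cells and astrocytes at 98.1 and 154.

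Of the channels gated by ions inside the cell, KCNMA1, the pore of the large-conductance BK channel, was called in BCs alone. BC libraries had 2898, 3331 and 4073 CPM as lowest, median and highest, and the highest library of the other classes, from microglia, had 1075 CPM, so that BCs did not overlap with any other class. The log2 fold change was 3.42 ± 0.11 (SE, adjusted p = 4.54e-59). KCNMB2, whose product inactivates BK channels, had its highest level in another class: cone libraries had 95.3, 159 and 224 CPM, all above the 48.6 CPM of the highest other library, an HC library, with a log2 fold change of 4.42 ± 0.10 (SE, adjusted p = 1.21e-73). BCs, with 23.9 CPM, and HCs, with 24.03 CPM, were called too.

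The sodium-activated KCNT1 (Slack) had 18.9, 49.98 and 68.7 CPM in RGC libraries and a mean of 47.6 ± 24.03 CPM (SD, n = 15) in ACs, with log2 fold changes of 3.76 ± 0.12 (SE, adjusted p = 5.83e-58) and 3.64. KCNT2 (Slick) was called in ACs, where the libraries had 37.8, 68.95 and 79.2 CPM and the log2 fold change was 4.04 ± 0.13 (SE, adjusted p = 2.63e-58). In RGCs its mean was 5.68 ± 4.54 CPM (SD, n = 15), and 1 rod library reached 146 CPM, above every AC library. Microglia were called as well, at 16.8 CPM from 33 UMIs. KCNN2, a small-conductance calcium-activated channel, was called in ACs, RGCs and HCs at 99.7, 95.9 and 59.3 CPM.

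Further differences lay within classes, and 4 pairs of subclasses were compared within retinas. By an adjusted p under 0.05 (edgeR quasi-likelihood test), 81 of 110 gene and pair combinations differed, against 41.1% of all combinations tested. The genes named for the pairs were those with the largest differences, picked after their values were seen.

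Starburst ACs, the cholinergic cells of the direction-selective circuit (2440 nuclei), were set against the other ACs (34776 nuclei). Here 40 of 42 genes differed, against a background of 54.3%, with 12 higher (background 25.7%) and 28 lower in starburst ACs. The largest differences upward were those of KCNIP2, KCNJ3 and KCNK2. KCNIP2 had 147, 220.4 and 333 CPM in starburst libraries against 22.8, 25.7 and 41.1 CPM in other ACs as lowest, median and highest, without overlap, a log2 difference of 3.01 ± 0.06 (SE, adjusted p = 1.73e-25). For KCNJ3 these were 2633, 3238 and 4543 CPM against 568, 712 and 895 CPM, also without overlap, a difference of 2.38 ± 0.05 (SE, adjusted p = 5.12e-25). KCNK2 was higher in 14 of 15 retinas, by 2.07, KCNJ2 by 1.53, KCNT1 by 1.08 and KCNC1 by 0.96 on the log2 scale.

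Several genes called in ACs as a class were far lower in starburst ACs. KCNIP4 had 4.78, 29.8 and 102 CPM in starburst libraries against 2205, 3129 and 3808 CPM in other ACs, a difference of -6.33 ± 0.19 (SE, adjusted p = 2.56e-22). KCNIP1 had 0, 11.9 and 35.5 CPM against 639.6, 900.3 and 1690.5 CPM, -5.77 ± 0.17 (SE, adjusted p = 2.33e-22). KCNC2 had 16.4, 49.3 and 73.9 CPM against 974, 1138 and 1478 CPM, -4.44 ± 0.10 (SE, adjusted p = 9.67e-25). In each of these the starburst libraries were lower in all 15 retinas and the ranges did not overlap. KCNA6, KCNQ5, KCND2 and KCNT2 were lower in all 15 retinas too, with differences of -6.03, -5.33, -4.97 and -4.78. KCNIP2 and KCNIP1 thus differed in opposite directions, as did KCNC1 and KCNC2.

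ON BCs (14976 nuclei), which depolarize to light, were set against OFF BCs (9527 nuclei). Of 36 genes 27 differed, against a background of 44.9%, with 12 higher (background 23.3%) and 15 lower in ON BCs. KCNS3 had 19.3, 42.6 and 117 CPM in ON and 0, 0.674 and 7.37 CPM in OFF libraries, a log2 difference of 5.36 ± 0.19 (SE, adjusted p = 4.16e-19). KCNA4 had 51.2, 81.6 and 114 CPM against 1.35, 4.01 and 7.45 CPM, 4.06 ± 0.11 (SE, adjusted p = 6.34e-22). KCNB2 had 1479.9, 1901 and 2719.5 CPM against 58.1, 135 and 283 CPM, 3.84 ± 0.11 (SE, adjusted p = 3.55e-21). None of these 3 ranges overlapped.

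In the opposite direction, the silent subunit KCNG3 had 2.47, 4.50 and 8.999 CPM in ON and 92.5, 143 and 208 CPM in OFF libraries, a log2 difference of -5.10 ± 0.11 (SE, adjusted p = 8.76e-24). The A-type genes KCND2 and KCND3 and their subunit KCNIP2 had differences of -2.26, -2.54 and -1.97, and KCNV2 and KCNK12 of -2.50 and -2.28. Each of these 5 was lower in all 15 retinas. KCNG3 and KCNS3 were therefore higher in opposite BC subclasses. KCNMA1, the BC gene, had a difference of -0.01 ± 0.03 (SE, adjusted p = 0.789), the ON and OFF libraries having 2844, 3397 and 4080.0 CPM and 2867, 3187 and 4148 CPM.

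S-cones (869 nuclei) and L-cones (13563 nuclei) were compared in 14 retinas. Of the S-cone nuclei 733 came from a cluster that held 229 CPM of the L-opsin gene OPN1LW beside 222 CPM of the S-opsin gene OPN1SW. The 3 smaller S-cone clusters had 34.4 to 54.5 CPM of OPN1LW and the L-cone clusters 397 to 888 CPM, and the part of L-cone RNA in the S-cone values was not tested. Of 15 genes 4 differed, against a background of 16.4%, with 2 higher (background 7.89%) and 2 lower in S-cones. KCNMA1 had 314, 615 and 912 CPM in S-cone and 46.5, 89.5 and 295 CPM in L-cone libraries, a log2 difference of 2.42 ± 0.13 (SE, adjusted p = 4.79e-18), higher in 14 of 14 retinas and without overlap. KCNB2 was lower in S-cones in 13 of 14 retinas, at -0.27 ± 0.04 (SE, adjusted p = 9.2e-08), and KCNAB3, a beta subunit of KCNA channels, higher by 0.60 ± 0.21 (SE, adjusted p = 0.0389). The KCNAB3 call was lost without any 1 of Infancy 1, Infancy 2, Infancy 4, Mature 1, Mature 2, Senile 1, Senile 2 or Senile 5 (adjusted p = 0.0505 to 0.111). KCNV2 and KCNMB2 differed by -0.08 ± 0.10 (SE, adjusted p = 0.669) and -0.07 ± 0.09 (SE, adjusted p = 0.707).

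Müller cells and astrocytes share KCNJ10 but differed in other channels. Of 17 genes 10 differed, against a background of 44.7%, with 2 higher (background 25.1%) and 8 lower in Müller cells. KCNG3 had 39.9, 96.2 and 145 CPM in Müller and 0, 4.32 and 18.1 CPM in astrocyte libraries, a log2 difference of 3.89 ± 0.26 (SE, adjusted p = 2.61e-11). KCNJ3 had 38.95, 94.5 and 246 CPM against 299.7, 1226 and 2091 CPM, -3.69 ± 0.28 (SE, adjusted p = 2.2e-10). Neither pair of ranges overlapped. KCNJ10 itself was lower in Müller cells, at -0.56 ± 0.17 (SE, adjusted p = 0.011), with wide overlap and 2 retinas the other way. Without the filter on low counts the KCNJ10 difference was -0.28 (adjusted p = 0.26). KCNIP1, KCNIP4, KCNC2 and KCNH7 were lower in Müller cells too, with differences of -2.53, -1.86, -1.77 and -1.66. The summed BC markers were 111, 677 and 2271 CPM in astrocyte libraries as lowest, median and highest and 104, 2027 and 4710.0 CPM in Müller libraries, and the summed AC markers 215, 522 and 1489.8 and 554, 669.9 and 961 CPM. The RGC markers had medians of 109, 153 and 106 CPM in infant, mature and senile astrocytes and 109, 74.8 and 94.1 CPM in Müller cells. BC and AC markers were thus higher by median in Müller cells and RGC markers were not, and the part of neuronal RNA in these 4 differences was not tested.

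**Figure D3:**
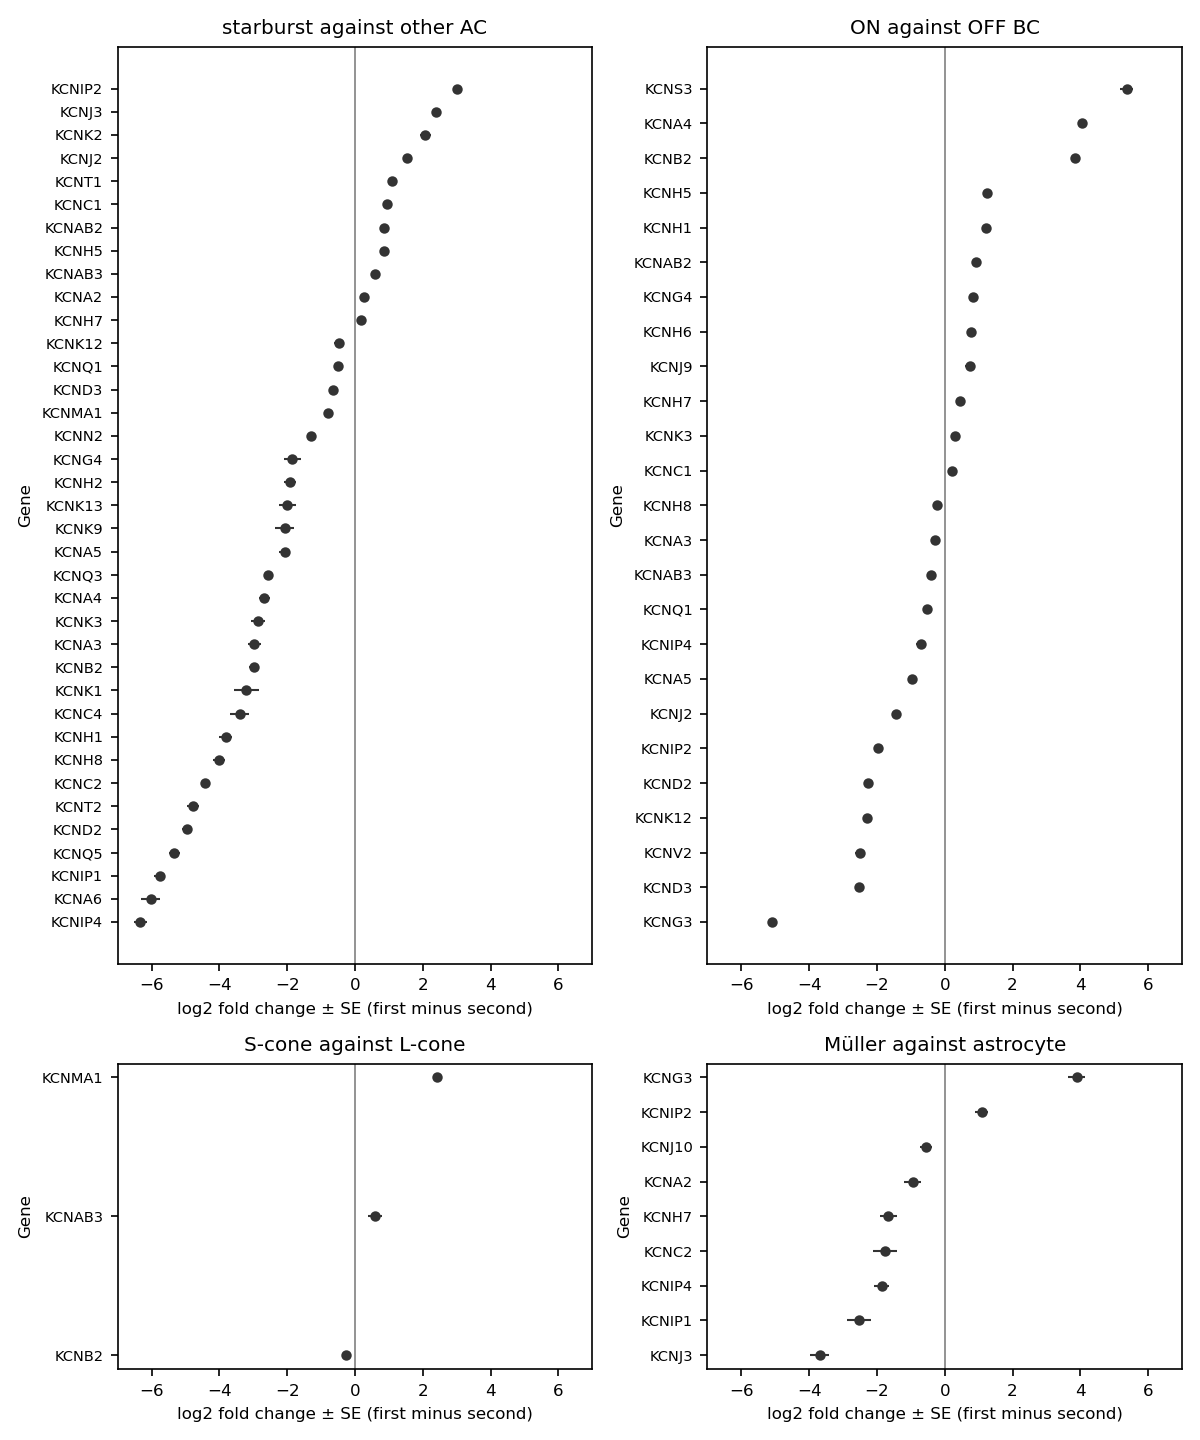
Log2 difference with its SE (points and bars) of potassium channel genes reported here that differed in each pair of subclasses, the first-named subclass minus the second. KCNIP4 lies lowest in starburst ACs at -6.33, KCNS3 highest in ON BCs at 5.36, KCNMA1 highest in S-cones at 2.42 and KCNG3 highest in Müller cells at 3.89.

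Few differences between stages were called. In each contrast 259 gene and class combinations were tested, by edgeR with stage and header version as terms. Between Senile and Infancy 1 of them was called, against 1.30% of all combinations. Between Mature and Infancy 0 were called (background 0.856%) and between Senile and Mature 0 (background 0.0194%). At an unadjusted p under 0.05 there were 37, 22 and 33 in these contrasts, that is 14.3%, 8.49% and 12.7%, against 9.36%, 11.1% and 9.3% of all combinations. DESeq2 called 4 (KCNT2 in RGCs, KCNB2 in HCs, KCNH6 in BCs and KCNH7 in microglia), 4 (KCNMA1 in cones and ACs, KCNH1 and KCNQ3 in BCs) and 2 (KCNB2 in HCs and KCNH7 in microglia), against 2.16%, 1.98% and 0.477% of all combinations. The contrasts share libraries, so their values are given side by side and not set against each other.

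The median change was close to the median SE. In 240 of the 259 combinations the senile and infant stages differed by less than 1 on the log2 scale, with a median absolute difference of 0.26 and a median SE of 0.30. The class-defining genes below did not pass the test. KCNB2 in cones differed by 0.20 ± 0.13 (SE, adjusted p = 0.649) between Senile and Infancy, KCNV2 in cones by -0.01 ± 0.19 (SE, adjusted p = 0.998), KCNMA1 in BCs by 0.06 ± 0.07 (SE, adjusted p = 0.899) and KCNK10 in RGCs by 0.14 ± 0.12 (SE, adjusted p = 0.884). KCNC2 in ACs differed by 0.12 ± 0.10 (SE, adjusted p = 0.847) and KCNK13 in microglia by -0.81 ± 0.31 (SE, adjusted p = 0.275). KCNJ10 in Müller cells had 192, 146, 139, 67.9 and 80.6 CPM in infant, 88.1, 76.7, 89.5, 30.1 and 103 in mature and 114, 161, 74.5, 43.2 and 66.9 in senile retinas. These ranges overlapped over both header versions together, and the senile retinas differed from the infant ones by -0.44 ± 0.30 (SE, adjusted p = 0.769). In the same edgeR fit the later header version differed from the earlier by -0.86 ± 0.25 (SE, adjusted p = 0.0296).

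**Figure D4:**
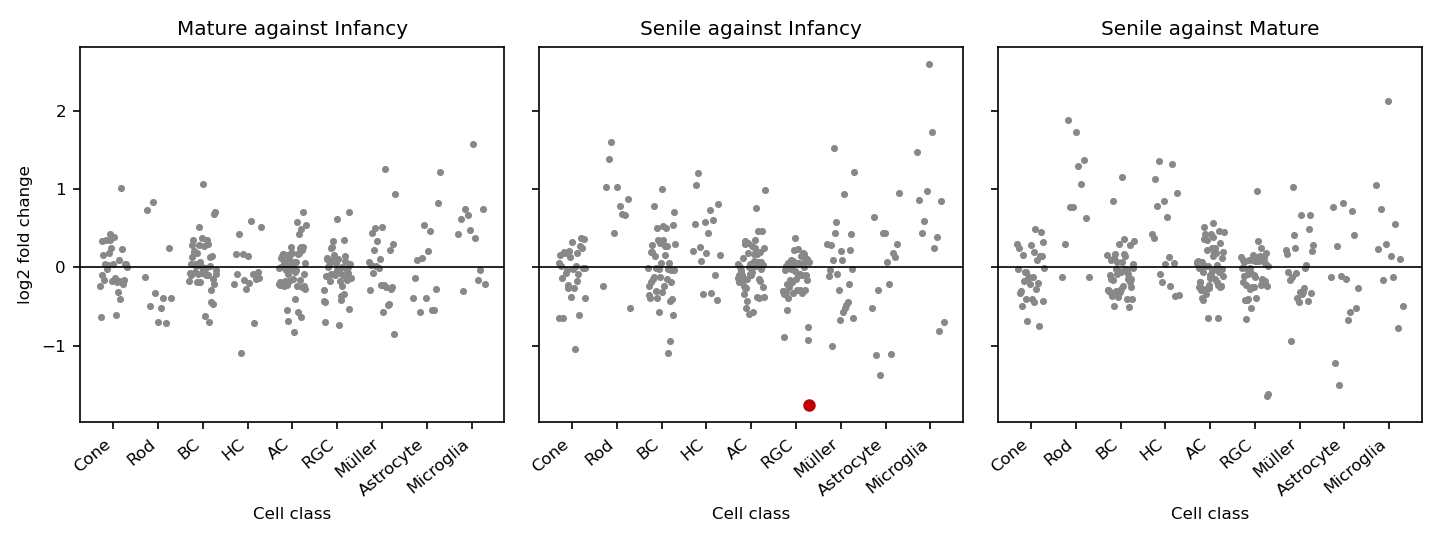
Log2 fold change of each tested potassium channel gene in each cell class for the 3 stage contrasts, 1 point per gene. The red point is the single call, KCNT2 in RGCs between Senile and Infancy, at -1.75.

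The call was KCNT2 in RGCs, which fell in the senile stage. RGCs of the infant retinas had 4.71, 4.06, 5.10, 13.6 and 7.75 CPM, those of the mature retinas 5.77, 4.25, 8.22, 17.6 and 1.97 CPM and those of the senile retinas 1.26, 2.83, 2.54, 2.83 and 2.72 CPM. All 5 senile values were below all 5 infant values, whereas Mature 5 lay within the senile range. The RGC library of Mature 5 came from 29 nuclei and held 506637 UMIs of all genes, so that its KCNT2 value rests on very few counts. The log2 fold change was -1.75 ± 0.40 (SE, adjusted p = 0.0329) between Senile and Infancy, -1.62 ± 0.41 (SE, adjusted p = 0.548) between Senile and Mature and -0.14 ± 0.35 (SE, adjusted p = 0.95) between Mature and Infancy.

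The KCNT2 call was sensitive to single retinas. It was kept without Mature 3, Mature 4, Mature 5 or Senile 2 (adjusted p = 0.0132 to 0.0475) and lost without any 1 of the other 11 retinas, that is each infant retina, Mature 1, Mature 2, Senile 1, Senile 3, Senile 4 or Senile 5 (adjusted p = 0.0501 to 0.18), at log2 fold changes of -2.002 to -1.48. With doublets kept the value was -0.81 (adjusted p = 0.85) and with nuclei named one by one -0.97 (adjusted p = 0.325). The call was also lost without the version term and with the replicate number as a block. KCNT2 was measured at a low level in RGCs, 177 UMIs in all, and a high one in ACs. The summed AC markers in the RGC libraries were 822, 813, 801, 793 and 864 CPM in infant, 988, 979.6, 1022, 757 and 938 in mature and 912, 909, 924, 1170.2 and 904 in senile retinas, and every senile sum was above every infant sum. That list includes PAX6, which RGCs also express. In ACs KCNT2 differed by -0.38 ± 0.14 (SE, adjusted p = 0.369) between the same stages, and the test of the difference between both classes gave -1.48 ± 0.37 (SE, adjusted p = 0.102).

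The next genes did not pass the test and are given as values. KCNMA1 in cones had 126, 123, 79.1, 105 and 117 CPM in infant, 318, 278, 184, 141 and 189 in mature and 115, 110.2, 245, 83.5 and 139 in senile retinas. Every mature value was above every infant value, and Senile 3 stood with the mature retinas. The summed markers of BCs, the class in which KCNMA1 was called, were 51.1, 82.9 and 229 CPM as lowest, median and highest in infant, 48.4, 121 and 307 in mature and 59.3, 69.5 and 301 in senile cones. These sums overlapped between the stages, and their part in the KCNMA1 values was not tested. The log2 fold change between Mature and Infancy was 1.01 ± 0.25 (SE, adjusted p = 0.0605), and DESeq2 gave an adjusted p of 0.0111. Without Mature 4, Senile 3 or Senile 4 the edgeR adjusted p was 0.0296, 0.0117 and 0.0488. In the earlier header version alone the change was 1.44 (adjusted p = 0.0047) and in the later alone 0.62 (adjusted p = 0.74).

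KCNB2 in HCs had 111, 86.6, 118, 194 and 135 CPM in infant, 114, 69.03, 250.2, 116 and 101 in mature and 288, 259, 499, 277 and 247 in senile retinas. Only Mature 3 reached the senile range, and the change between Senile and Infancy was 1.05 ± 0.26 (SE, adjusted p = 0.117). The summed cone markers of the same HC libraries were 127, 79.6, 159.9, 207 and 138 CPM in infant, 92.01, 43.9, 243, 163 and 155 in mature and 109.6, 149, 232, 349.9 and 317 in senile retinas. Of the 5 senile sums 3 were above every infant sum. The ratio of KCNB2 to these markers was 0.875, 1.09, 0.741, 0.939 and 0.978 in infant, 1.24, 1.57, 1.03, 0.714 and 0.648 in mature and 2.62, 1.74, 2.15, 0.791 and 0.7797 in senile HCs, so that in 3 of 5 senile retinas it was above every infant and mature ratio. The summed markers of BCs, in which KCNB2 was called too, were 373, 545 and 647 CPM as lowest, median and highest in infant, 232, 558 and 942 in mature and 440.3, 1038 and 1406 in senile HCs, and 4 of the 5 senile sums were above every infant sum. The BC list includes ISL1, by which the study also marks its H2 type of HCs, and the study describes a rising trend of H2 from infant to senile retinas. These sums may therefore hold RNA of the HCs themselves. The part of cone or BC RNA in the HC values was not tested. With nuclei named one by one the value was -0.33 (adjusted p = 0.858).

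KCNH7 in microglia had 44.1, 396, 537, 85.01 and 89.2 CPM in infant, 357, 422, 387, 70.2 and 231 in mature and 1152, 783, 1280.5, 900.2 and 1547 in senile retinas. All senile values were above all others, and the change between Senile and Infancy was 2.60 ± 0.59 (SE, adjusted p = 0.0825). These libraries came from 13 to 84 nuclei each. Their summed BC markers, a class in which KCNH7 was high, were 162, 1934, 1228, 2777 and 1539 CPM in infant, 2575, 3169, 2963, 1122 and 888 in mature and 3129.8, 165, 2077, 4019 and 1381 in senile retinas. Microglial markers summed to 11579, 6945, 7556, 4052 and 4451 CPM in infant, 4482, 5264, 4131, 4038 and 4386 in mature and 4666, 10632, 3680.1, 2275 and 2698 in senile retinas. HC markers, of the class in which KCNH7 was highest, summed to 118, 387, 186, 759 and 145 CPM in infant, 479, 204, 195, 117 and 462 in mature and 356, 412, 323, 525 and 517 in senile microglia, with overlap between the stages. Cone markers summed to 279, 352, 208, 289 and 134 CPM in infant, 502, 190.4, 269, 335 and 213 in mature and 441, 865, 656, 532 and 588 in senile microglia, every senile sum being above every infant sum. In cones KCNH7 had a mean of 28.2 CPM. RGC markers, of another class called for KCNH7, had medians of 206, 111 and 125 CPM in infant, mature and senile microglia, with overlapping ranges. The part of neuronal RNA in the microglial values was not tested.

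In BCs, KCNQ3 and KCNH1 between Mature and Infancy and KCNH6 between Senile and Infancy passed DESeq2 but not edgeR. KCNQ3 had 29.5, 36.9, 41.8, 25.9 and 35.9 CPM in infant and 69.9, 55.2, 57.5, 30.2 and 49.6 in mature BCs, a difference of 0.68 ± 0.19 (SE, adjusted p = 0.0988). The summed markers of ACs, a class in which KCNQ3 was called, were 152, 181, 156, 168 and 175 CPM in infant and 217, 199.8, 267, 191 and 207 in mature BCs, without overlap, and their part in the KCNQ3 values was not tested. KCNH1 had 71.5, 45.3, 46.1, 45.5 and 40.8 CPM in infant and 101, 64.6, 58.2, 57.4 and 64.00 in mature BCs, at 0.52 ± 0.15 (SE, adjusted p = 0.111). KCNH6 had 97.9, 82.2, 87.3, 48.7 and 50.8 CPM in infant and 46.2, 69.4, 51.2, 34.04 and 37.8 in senile BCs, at -0.56 ± 0.15 (SE, adjusted p = 0.102). In all 3 genes the ranges of the stages overlapped over both header versions together. The later version differed from the earlier by -0.48, -0.43 and -0.62 for KCNQ3, KCNH1 and KCNH6 in BCs (edgeR adjusted p = 0.0324, 0.0169 and 0.00219).

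**Figure D5:**
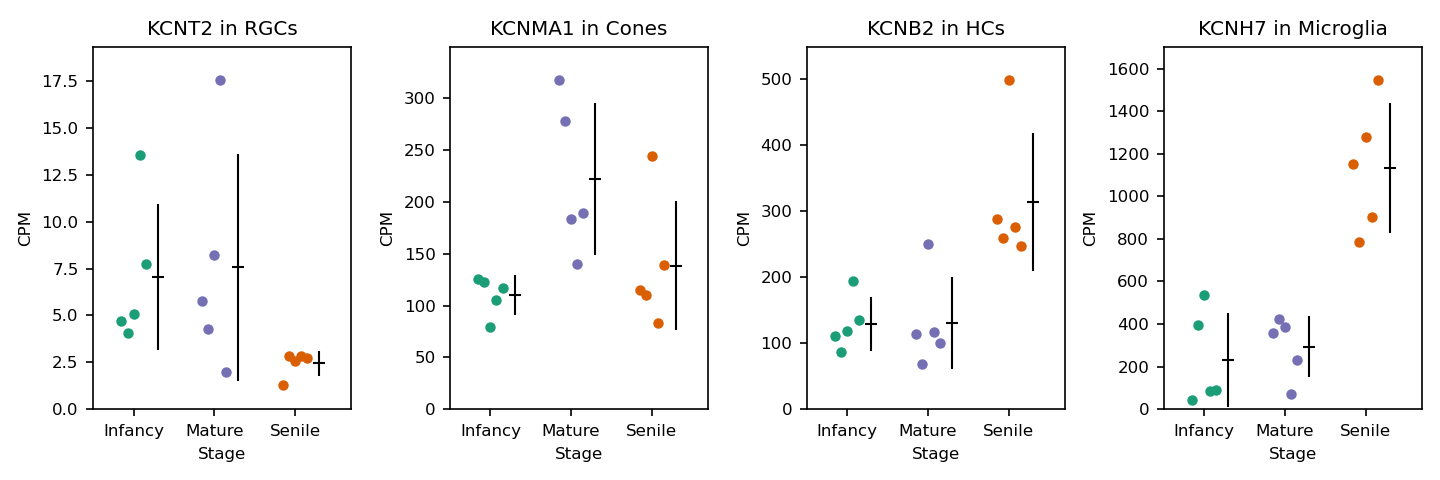
CPM of 4 gene and class combinations in each retina (points, coloured by stage), with the mean and SD of the 5 retinas beside them. The KCNT2 values in RGCs of the senile retinas lie at 1.26 to 2.83 CPM, below the infant retinas, while KCNMA1 in cones, KCNB2 in HCs and KCNH7 in microglia did not pass the test.

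A list of 11 genes for proteins that assemble with these channels was counted in the same fits. Of 7 such genes tested between classes, 17 of 63 gene and class combinations were called higher, against 14.4% of all combinations tested. DPP10, CNTNAP2, ABCC9 and a numbered copy of LRRC38 were among the variable genes from which the clusters were built. The class and subclass calls of DPP10, CNTNAP2 and ABCC9 are part of these counts. They are therefore not independent of the clusters and are given as a description. Whether the copy of LRRC38 affects the calls of LRRC38 was not tested. DPP10, an auxiliary subunit of KCND channels, was called in RGCs (log2 fold change 4.50) and ACs (3.13), and was higher in ON than OFF BCs by 3.58 ± 0.13 (SE, adjusted p = 3.72e-19), opposite to KCND2 and KCND3. ABCC9, the sulfonylurea receptor of KATP channels, was called in astrocytes alone (5.98 ± 0.22, adjusted p = 2.92e-52), whereas KCNJ8, a pore it can assemble with, had 2 UMIs, both in ACs. ABCC8 was called in BCs and RGCs and was higher in S-cones than L-cones by 2.79 ± 0.17 (SE, adjusted p = 2.19e-16). LRRC38, a BK subunit, was called in BCs, HCs and microglia, by 3.53, 1.22 and 1.07, whereas KCNMA1 was called in BCs alone. The part of BC RNA in the microglial call of LRRC38 was not tested. Between stages 0 of 37 combinations of these partner genes were called by edgeR in any of the 3 contrasts.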

How the data were processed

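The authors aligned the reads and deposited, for each library, raw UMI counts per gene and barcode. Their methods name Cell Ranger, the file headers name versions 6.1.2 and 7.0.1 and the submitters' processing notes 5.0.1 and 7.0.1, and the genome was TS_3.0. Whether intronic reads were counted is not given in the sources used here. Barcodes with 200 to 6000 genes and under 5% mitochondrial counts were kept, doublets were scored by simulation and removed at an expected 8 per 1000 for every 1000 nuclei of a library, and Leiden clusters (igraph 0.11.9, 2000 variable genes without any gene whose name starts with KCN, 30 components) were named from fixed marker lists, with thresholds set after the clusters had been seen. Noncoding features named after KCNA3, KCNA5, KCNG4, KCNJ2 and KCNMB2, with names that start with LINC, stayed among the variable genes. Whether this affects the class calls of these channel genes was not tested. In 83.9% of 99713 nuclei, naming nuclei one by one gave the same class. The counts of each class in a retina were added up and tested with edgeR 4.0.16 (TMM, filterByExpr, quasi-likelihood, Benjamini-Hochberg over all features), with DESeq2 1.42.0 (R 4.3.3) as an alternative. Class tests took the retina as a block. Stage tests took stage and header version. Genes named were up to 4 per class with the largest fold change (adjusted p under 0.05, log2 fold change above 1, at least 20 CPM), all stage calls, a list of channels with known retinal roles and a partner list. The gene set and these lists were chosen with earlier results of these data known. Some genes counted in the set are not reported here. The fits were tested on simulated data.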

Additional observations from a re-analysis of the deposited data

Results flagged for a closer look

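Among 144 groups of retinas of the named genes, 11 (7.64%) held 1 retina far from the other 4 of its stage by Dixon's gap test, which flags about 1 in 20 groups by chance. These were the highest retina for KCNB2 in HCs in the Mature (250 CPM) and Senile (499 CPM) stages, KCNH1 in BCs in Infancy (71.5 CPM) and Mature (101 CPM), KCNH8 in Müller cells in Infancy (269 CPM), KCNK5 in astrocytes in Mature (97.4 CPM), KCNQ5 in astrocytes in Mature (961 CPM) and Senile (30.1 CPM) and KCNS3 in BCs in Senile (58.8 CPM). The lowest retina stood apart for KCNC1 in ACs in Infancy (211 CPM) and KCNT2 in RGCs in Senile (1.26 CPM). In features left out of the gene set, 146 of 175 antisense features and numbered copies of potassium channel genes had more than 3 UMIs, and together they held 480275 UMIs, 0.142% of those of the named nuclei, against 1.11% for the gene set. Reads that a channel gene shares with such a copy or antisense feature may have been divided between them.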

How the results depend on the processing

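The count of genes higher in a class ranged from 97 (nuclei named one by one) to 168 (no filter on low counts) against 124, and the count of subclass differences from 79 to 110 against 81. All of these were within 1.5 times the reported count. Leaving out 1 retina gave 117 to 132 and 80 to 84. The stage counts were less stable. For senile against infancy, mature against infancy and senile against mature, leaving out 1 retina gave 0 to 2, 0 to 2 and 0 to 1 calls, no filter on low counts 15, 10 and 15, DESeq2 4, 4 and 2, and the earlier header version alone, chosen after seeing the data, 3, 2 and 1. Senile against infancy had 0 calls without the version term, with nuclei named one by one and with doublets kept. With stage alone removed, 13 of 15 same-numbered pairs of retinas correlated above 0.1, against 24 of 60 pairs of different number. With stage and header version removed these were 1 of 15 and 26 of 60. Most same-numbered pairs share a header version, and removing that term can itself lower their correlation. Whether the replicate numbers pair the retinas therefore cannot be decided from these values. With the replicate number as a block the calls were 0, 0 and 0, and KCNT2 in RGCs had a log2 fold change of -1.56 (adjusted p = 0.196). KCNH7 in starburst ACs turned to -0.030 (adjusted p = 0.765) without the filter. Of 34 named class values, 6 of 710 repeats lost the call, and of 81 subclass differences, 28 of 1458 did. For all of these the cause was not tested. Classes with few nuclei limit the depth: an astrocyte or microglial library rested on as few as 24 or 13 nuclei.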
